A study of Mus musculus with 6 samples.

Results

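The genes described here are C3, Cfb, C1ra, Serping1, Lcn2, Saa3, Sod2, Icam1 and Vcam1, a set of complement, acute-phase and adhesion genes taken by symbol from the gene expression table of the series. All 9 symbols had a row among the 16880 genes of the table. To examine how a fascin inhibitor affects IL-1β-stimulated chondrogenic cells, RNA was sequenced from the mouse line ATDC5, which derives from teratocarcinoma cells and can be driven towards cartilage. The IL group received IL-1β alone at 10 ng/mL, and the ILN group received IL-1β at the same concentration with NP-G2-044 at 10 μM, both for 24 h according to the methods, with 3 libraries per group. Cells given DMSO, which the methods mention, were not analysed here, so the values compare stimulated cells with stimulated cells given the inhibitor and do not say what IL-1β itself did. NP-G2-044 is a small molecule that blocks the binding of fascin (FSCN1) to actin. The titles name this compound, whereas the treatment field of the ILN libraries names NP-G2-047. The source name of every library is ATDC5, an established line, although the methods speak of chondrocytes. The methods call the libraries biological replicates without saying whether they came from separate cultures. The p-values therefore judge the group difference only against the spread between these libraries. That spread was small, with a correlation of at least 0.995 between libraries of the same group.

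Complement is a cascade of plasma and local proteins that tags surfaces for removal. In its classical arm the protease C1r activates the protease C1s, which cuts C4 and C2. In its alternative arm factor B joins cleaved C3, and every arm meets at C3, while inhibitors such as C1 inhibitor hold the cascade in check. Acute-phase proteins such as serum amyloid A and lipocalin 2 are made in larger amounts during inflammation, and IL-1β, through the transcription factor NF-κB, is a classic inducer of them. Chondrocytes and fibroblasts can make many of these proteins themselves, and the adhesion molecules ICAM-1 and VCAM-1 are displayed by cytokine-stimulated cells and bound by leukocyte integrins.

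The libraries held 16615824 to 17735860 assigned reads each, and all were of similar depth. Of the 9 genes, 6 (C3, C1ra, Lcn2, Saa3, Sod2 and Vcam1) carried enough reads for the test, and all 6 of these were lower in ILN than in IL (edgeR's quasi-likelihood test, adjusted p under 0.05). Among the 11983 genes tested in the whole table, 39.8% were lower at this threshold and 40.2% higher, so a call in itself was common. C3, C1ra, Saa3 and Vcam1 also fell by more than a log2 fold change of 1, which 10.1% of all tested genes did. The median log2 fold change of the 6 tested genes was −3.08, beside 0.0 over all tested genes. In each of the 6, every ILN library lay below every IL library, as in 40.1% of all tested genes. Cfb, Serping1 and Icam1 had fewer than 10 reads in every library and were not tested. Vcam1 passed the filter on low counts only through its IL libraries. In bulk RNA, fewer cells of a type and less RNA per cell cannot be told apart.

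**Figure D1:**
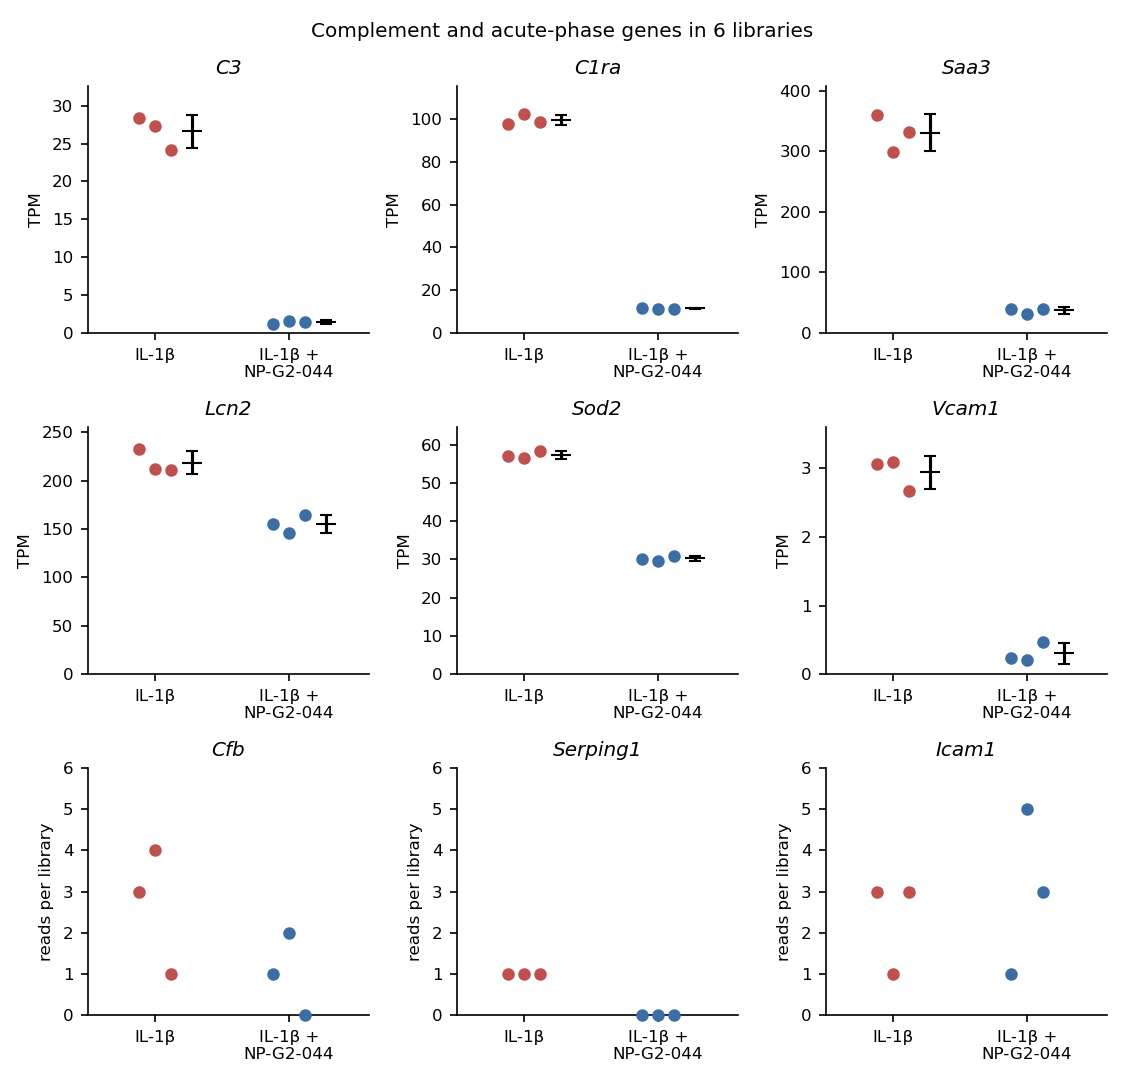
Level of each of the 9 genes in the 3 IL and 3 ILN libraries, in TPM with the mean and SD for the 6 tested genes and in assigned reads for Cfb, Serping1 and Icam1. The ILN points of C3, C1ra, Saa3 and Vcam1 lie far below the IL points, those of Lcn2 and Sod2 lie closer to them, and the untested genes stay at 5 reads or fewer.

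C3, the component at which all arms of complement meet, showed the largest fall of the set. C3 (Entrez 12266) lies on the minus strand at chr17:57203970-57228136 in mm10. Its level in TPM (transcript abundance corrected for gene length and library depth) was 28.4, 27.3 and 24.2 in the IL libraries. In the ILN libraries it was 1.21, 1.65 and 1.45. The groups lay far apart and the libraries within each group lay close together. The mean was 26.6 ± 2.17 TPM in IL and 1.44 ± 0.22 TPM in ILN (SD, n = 3 each), with a log2 fold change of −4.35 (SE 0.08, adjusted p = 1.14e-40 in edgeR's test). This left 4.92% of the IL level, a 20.3-fold difference, and C3 ranked 70 among 11983 genes ordered from the largest fall. The ILN values rested on 57, 69 and 65 reads against 1340, 1193 and 1167 in IL.

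The 250 bases before a RefSeq start are given for 4 of the genes, C3, Saa3, Lcn2 and Sod2, picked after their falls were seen. Whether these sequences bear on the falls was not tested. The sequences are from RefSeq (GRCm38.p6), in which 6 of the 9 genes had a promoter entry. These starts can differ from the ends of the gene spans given here, which are from GENCODE: the windows of Lcn2 and Sod2 lie inside the spans of those genes, and that of Saa3 overlaps the end of its span. Capitals mark matches, on either strand, to 4 short motifs: the NF-κB consensus, the C/EBP-type letters TTGNGNAA, the interferon-response letters (GAAA, any 2 bases and GAAA again) and the STAT-type letters TTCNNNGAA. C3 reads as follows, at chr17:57228137-57228386 on the minus strand.
C3: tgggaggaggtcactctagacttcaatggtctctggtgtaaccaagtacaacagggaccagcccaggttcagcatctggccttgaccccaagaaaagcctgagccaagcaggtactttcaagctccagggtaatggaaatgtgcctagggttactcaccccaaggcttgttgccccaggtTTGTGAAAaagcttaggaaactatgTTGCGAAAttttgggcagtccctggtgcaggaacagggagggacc
Both capitals in C3 match TTGNGNAA, at positions −70 to −63 and −45 to −38 from the start. A match to these letters occurred in 11.7% of all 32851 promoters searched and in 3 of the 6 promoters of the set, C3, C1ra and Lcn2. These matches describe letters only and are not evidence of binding.

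C1ra encodes a C1r protease of the classical arm, and it was the most abundant complement gene of the set. C1ra (Entrez 50909) lies on the plus strand at chr6:124512405-124523443. Its level was 97.6, 102 and 98.6 TPM in the IL libraries. It was 11.9, 11.2 and 11.4 TPM in the ILN libraries, well below all IL libraries and with little spread. The means were 99.5 ± 2.48 and 11.5 ± 0.349 TPM (SD, n = 3 each), and the log2 fold change was −3.08 (SE 0.0448, adjusted p = 3.47e-49 in edgeR's test), which left 11.8%. C1ra has a near copy, C1rb: 48.0% of the 50-base words of its exons also occur in C1rb, so how the authors' counting divided shared reads matters for its level. C1rb itself had 3, 1 and 0 reads in IL and none in ILN.

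The remaining complement members were near the limit of detection. Cfb (Entrez 14962; chr17:34856374-34862518, minus strand), which encodes the factor B protease of the alternative arm, had 3, 4 and 1 reads in IL and 1, 2 and 0 in ILN. Scaled for depth, the pooled ratio of IL to ILN was 2.81, with an exact 95% interval of 0.674 to 16.4, so no difference was detectable at this depth. Such intervals cover counting error only. Of the 50-base words of Cfb, 73.0% are shared with the overlapping read-through model Gm20547, and its counts are uncertain for that reason too. Serping1 (Entrez 12258; chr2:84765387-84775444, minus strand), which encodes C1 inhibitor, had 1 read in each IL library and none in ILN. With 3 reads of 50249011 against 0 of 52886089, which itself allows up to 3, no fold is given. These cells thus held clear C3 and C1ra RNA under IL-1β alone, with very few reads of factor B or C1 inhibitor.

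Other genes of complement were taken from lists for its initiation, its amplification and terminal steps, its regulators and its receptors. The lists name 54 genes, of which 42 had a row and 19 were tested. At the adjusted p threshold 11 were lower and 8 higher in ILN, and past both cutoffs 9 were lower and 2 higher, beside 10.1% lower and 6.48% higher among all tested genes. The median log2 fold change of these 19 was −0.75. C3 and C1ra are among them. Of the 19, 3 passed the filter on low counts through IL alone, and without these the counts were 8 lower and 8 higher, 6 and 2 past both cutoffs, with a median of −0.17.

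Among the initiating proteins, 7 of 14 genes with a row were tested. Of these, 4 were lower and 3 higher, beside 39.8% and 40.2% among all tested genes. The largest fall was that of C1s1, which encodes the C1s protease that C1r activates. Its level was 32.4, 32.0 and 32.0 TPM in IL and 1.22, 1.42 and 1.12 TPM in ILN, so the groups stood far apart. Its log2 fold change was −4.64 (SE 0.0888, adjusted p = 1.24e-43 in edgeR's test), which left 4.01% of the IL level. C1s1 shares 21.9% of its 50-base words with its near copy C1s2, which had 8 reads in IL and 6 in ILN. C1rl, a C1r-like protease gene, went from 8.31 ± 0.471 to 1.13 ± 0.0346 TPM (SD, n = 3; log2 fold change −2.84, SE 0.124, adjusted p = 2.96e-27). The substrates of C1s were scarce: C2 had 1 read in every library, and C4b had 0, 1 and 1 reads in IL and 0, 4 and 1 in ILN. The genes called higher, Masp1, Masp2 and C4a, had log2 fold changes of 0.11, 0.32 and 0.81, and these genes were picked out after their values were seen. The calls of Masp1 (adjusted p = 0.0154 in edgeR's test) and Masp2 (0.0287) were lost in DESeq2 (0.0817 and 0.126). Masp1 was also lost without IL replicate 3 (0.0683), ILN replicate 1 (0.0615) or ILN replicate 2 (0.138), and Masp2 without IL replicate 1 (0.111), IL replicate 3 (0.0642) or ILN replicate 2 (0.227). Masp2 was called on reads, whereas its mean TPM was 5.77 in IL and 5.52 in ILN. Of the 50-base words of Masp2, 52.5% lie also in Tardbp on the opposite strand, and 30.6% of those of C4a occur in C4b.

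Within single libraries, the ratio of C1ra to C1s1 in TPM was 3.01, 3.20 and 3.08 in IL and 9.74, 7.89 and 10.2 in ILN. The genes of the C1r and C1s proteases therefore did not fall in proportion, and the ratios of the groups did not overlap. The log2 difference between the groups was 1.57, with p = 0.1 in a two-sided exact permutation test, the smallest p that 3 libraries against 3 allow. This pair was chosen after its values were seen.

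Of the regulators, 3 of 7 tested genes were lower and 4 higher, beside 39.8% and 40.2% among all tested genes. Of those lower, 2 passed the filter through IL alone. Clu, the gene of the secreted chaperone clusterin, fell from 2.93 ± 0.319 to 0.877 ± 0.237 TPM (SD, n = 3; log2 fold change −1.64, SE 0.233, adjusted p = 1.11e-08). The genes that rose encode proteins held in the cell membrane. Cr1l, the rodent C3 convertase inhibitor Crry, went from 25.3, 26.0 and 25.0 TPM to 59.5, 58.1 and 59.1 TPM, and the groups lay well apart. Its log2 fold change was 1.24 (SE 0.0525, adjusted p = 6.71e-28). Cd46, a cofactor for C3b cleavage, rose from 0.65 ± 0.204 to 2.22 ± 0.0751 TPM (SD, n = 3; log2 fold change 1.77, SE 0.203, adjusted p = 3.14e-11), and its exons overlap 1079 bases of A330023F24Rik on the opposite strand. Cd59a and Cd59b, which encode blockers of the membrane attack complex, rose by log2 fold changes of 0.80 and 0.81, and Susd4, also a membrane protein, fell by 1.82 on the log2 scale. The last 3 were named after their values were seen.

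Of the amplification and terminal list, the 3 tested genes, C3, C8g and Cfp, were all lower, beside 39.8% of all tested genes. C8g passed the filter on low counts through IL alone. C8g, a subunit gene of the membrane attack complex, rested on 41 reads in IL and 8 in ILN, with a log2 fold change of −2.37 (SE 0.462, adjusted p = 8.07e-06 in edgeR's test). Of 8 receptor genes, 2 were tested. Itgb2, the β2 chain of the leukocyte receptors for cleaved C3, fell from 4.40 ± 0.214 to 1.6 ± 0.15 TPM (SD, n = 3; log2 fold change −1.44, SE 0.14, adjusted p = 1.74e-13), and C1qbp, the other, had a log2 fold change of 0.37. The α chain genes of those receptors on the list were almost without reads. Itgam had 2 reads in IL and 0 in ILN, and Itgax had 5 and 4. Both were named after their values were seen.

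**Figure D2:**
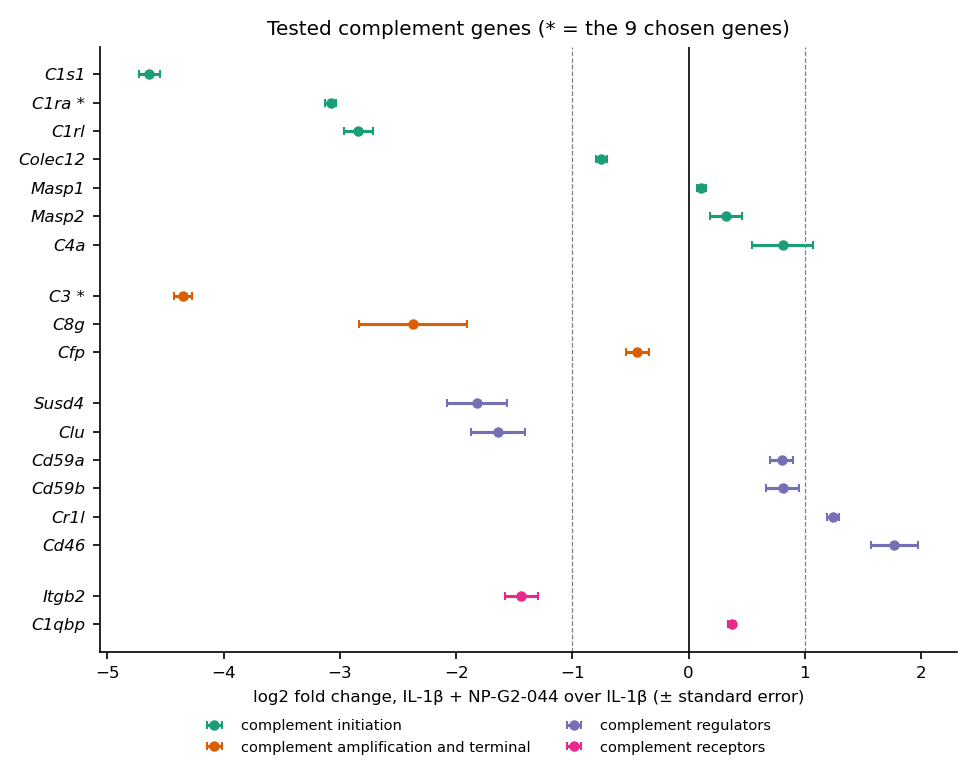
Log2 fold change of ILN against IL with its SE for tested genes of the complement lists, with dashed lines at −1 and 1 and an asterisk on C3 and C1ra. C1s1 and C3 lie farthest to the left, while Cr1l and Cd46 lie beyond 1 on the right.

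Saa3 and Lcn2, the acute-phase members, both fell but by very different amounts. Saa3 encodes a serum amyloid A that is made in mice outside the liver, and Lcn2 encodes lipocalin 2, which binds bacterial siderophores. Their promoters read as follows, with the same marking of capitals, Saa3 at chr7:46715677-46715926 and Lcn2 at chr2:32387740-32387989, both on the minus strand.
Saa3: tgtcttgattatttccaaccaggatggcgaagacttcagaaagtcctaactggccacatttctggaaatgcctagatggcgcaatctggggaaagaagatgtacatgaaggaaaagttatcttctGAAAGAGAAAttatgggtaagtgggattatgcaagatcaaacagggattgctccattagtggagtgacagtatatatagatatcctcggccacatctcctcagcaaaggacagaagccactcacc
Lcn2: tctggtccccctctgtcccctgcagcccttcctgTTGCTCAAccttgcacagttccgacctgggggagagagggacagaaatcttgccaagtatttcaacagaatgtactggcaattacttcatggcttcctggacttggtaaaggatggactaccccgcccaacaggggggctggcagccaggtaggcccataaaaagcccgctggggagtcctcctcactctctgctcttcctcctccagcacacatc
The capitals in Saa3, at positions −125 to −116, match the interferon-response letters, a motif found in 3.0% of all promoters and in 1 of the 6 promoters of the set. Those in Lcn2, at −216 to −209, match TTGNGNAA. Neither window held a match to the NF-κB consensus as written, which says only that these letters are not in this window.

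Saa3 (Entrez 20210; chr7:46711998-46715700) was the most abundant gene of the set under IL-1β alone, at 361, 299.6 and 332 TPM. In ILN it was 40.4, 31.2 and 40.2 TPM, and the groups did not overlap. Its log2 fold change was −3.08 (SE 0.102, adjusted p = 4.82e-14 in edgeR's test), which left 11.8%. Among the tested genes ordered by mean TPM, Saa3 moved from rank 384 to rank 4261. Lcn2 (Entrez 16819; chr2:32384633-32388252) was at 232, 212 and 211 TPM in IL and at 155, 146 and 165 TPM in ILN. The groups of Lcn2 stood apart but close, with the highest ILN library at 165 and the lowest IL library at 211 TPM. Its log2 fold change was −0.47 (SE 0.047, adjusted p = 3.13e-11), which left 72.1%, and Lcn2 fell short of the log2 cutoff of 1. Saa3 therefore exceeded Lcn2 under IL-1β alone and was the scarcer of the pair with the inhibitor. The ratio of Saa3 to Lcn2 was 1.55, 1.41 and 1.57 in the IL libraries and 0.261, 0.213 and 0.244 in the ILN libraries. The log2 difference was −2.66, with p = 0.1 in a two-sided exact permutation test, again the smallest possible, for a pair chosen after its values were seen.

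On the list of acute-phase and innate defence genes, 22 of 39 had a row and 12 were tested. Of these, 10 were lower and 2 higher at the adjusted p threshold, and 9 were lower and 2 higher past both cutoffs. Among all tested genes 39.8% were lower and 40.2% higher, and 10.1% and 6.48% past both cutoffs. The median log2 fold change of the 12 was −3.09. Of the 12, 6 passed the filter on low counts through IL alone and 1 through ILN alone. The other 5 had 4 lower and 1 higher, 3 and 1 past both cutoffs, with a median of −1.19. Orm1, which encodes the plasma carrier orosomucoid, had 95, 80 and 60 reads in IL and 0, 1 and 0 in ILN. Its near copy Orm2 had 81, 83 and 73 reads in IL and 0, 2 and 1 in ILN. Hp, which encodes the hemoglobin binder haptoglobin, had 35, 45 and 37 reads in IL and 0, 0 and 1 in ILN. For each of these genes the RNA was plain in all IL libraries and almost gone in all ILN libraries. Each of them passed the filter on low counts through IL alone, so their tests are of genes let in by their high group. The pooled ratios of IL to ILN, with exact 95% intervals, were 247 (44.0 to 9810) for Orm1, 83.1 (28.1 to 406) for Orm2 and 123 (21.7 to 4900) for Hp, and the adjusted p in edgeR's test was 1.54e-20, 4.45e-22 and 2.55e-16 respectively. The fitted log2 fold changes of Orm1 (−7.48), Orm2 (−6.20) and Hp (−6.48) rest on 1 to 3 ILN reads and became −9.32 and −7.04 without ILN replicate 2 for Orm1 and Orm2, and −8.32 without ILN replicate 3 for Hp. Orm1 and Orm2 share 20.4% of the 50-base words of Orm1, so reads may have been divided between them.

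Orm3 had 57, 37 and 48 reads in IL and 2, 4 and 11 in ILN, with a log2 fold change of −3.11 (SE 0.317, adjusted p = 7.81e-12 in edgeR's test), which was −3.99 without ILN replicate 3. Orm3 too passed the filter on low counts through IL alone. The close relatives of Saa3 were almost silent, with 1 read of Saa1 and 2 of Saa2, all in IL replicate 3. Serpina3n, a protease inhibitor of the acute phase, had 2 reads, both in ILN. Other genes, named after their values were seen, were Cp and Mt1. Cp, which encodes the copper-binding ferroxidase ceruloplasmin, fell from 30.3 ± 0.187 to 7.37 ± 0.226 TPM (SD, n = 3; log2 fold change −1.98, SE 0.0515, adjusted p = 1.72e-37). Mt1, which encodes the metal-binding protein metallothionein 1, went the other way, from 587, 631 and 626 TPM in IL to 1847, 1726 and 1950.1 TPM in ILN (log2 fold change 1.6, SE 0.0367, adjusted p = 1.34e-28). Hpx, the gene of the heme binder hemopexin, was the other gene called higher, at 31 reads in IL and 66 in ILN (log2 fold change 1.01, adjusted p = 0.00312). Hpx passed the filter through ILN alone, and its log2 fold change lay under the cutoff of 1 in limma-voom (0.98), on log2(TPM + 1) (0.52) and log2(TPM + 0.1) (0.90), and without IL replicate 1 (0.86), IL replicate 2 (0.92), ILN replicate 1 (0.97) or ILN replicate 2 (0.81). The acute-phase genes thus did not all move together.

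**Figure D3:**
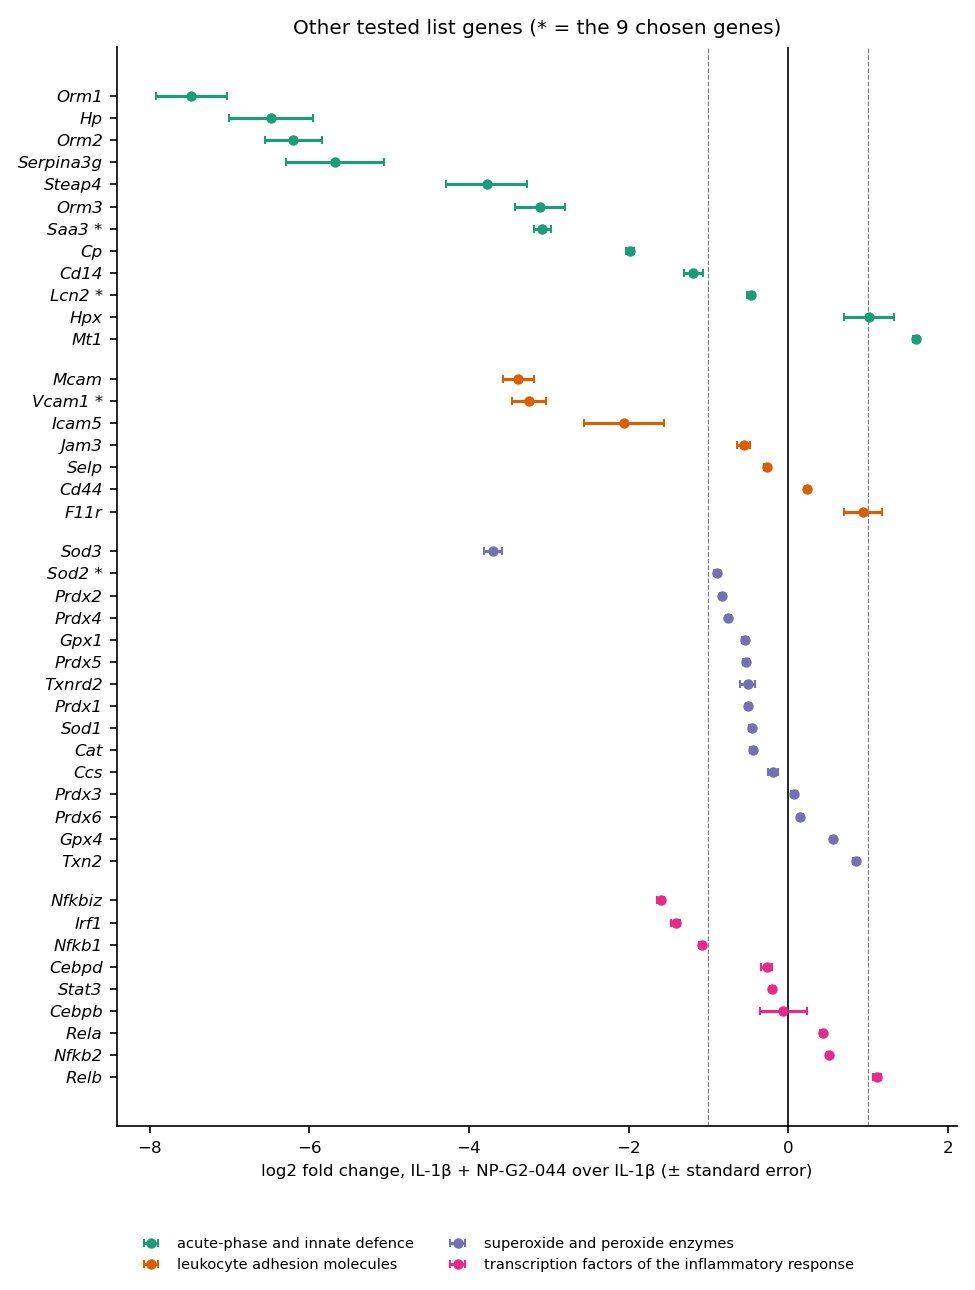
Log2 fold change of ILN against IL with its SE for tested genes of the acute-phase, adhesion, superoxide and transcription factor lists, with dashed lines at −1 and 1 and an asterisk on Saa3, Lcn2, Vcam1 and Sod2. Most acute-phase genes lie left of −1, while most of the superoxide enzymes lie between the lines, with Sod3 far to their left.

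Sod2 encodes the manganese superoxide dismutase of mitochondria, a well-known NF-κB target. Its promoter, at chr17:13007589-13007838 on the plus strand, was the only one of the 6 with a match to the NF-κB consensus.
Sod2: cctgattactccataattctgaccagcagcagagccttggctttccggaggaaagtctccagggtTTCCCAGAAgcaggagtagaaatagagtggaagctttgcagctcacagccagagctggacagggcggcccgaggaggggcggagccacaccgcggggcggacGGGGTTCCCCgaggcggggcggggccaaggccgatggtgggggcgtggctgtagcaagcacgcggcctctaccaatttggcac
The second run of capitals, at positions −83 to −74, is the NF-κB match, a motif present in 7.3% of all promoters. The first run, at −185 to −177, matches TTCNNNGAA, present in 7.0% of all promoters and in 2 of the 6, Sod2 and Icam1. Both runs are matches of letters only and are not evidence of binding.

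Sod2 (Entrez 20656; chr17:13006846-13040063) was at 57.1, 56.5 and 58.5 TPM in IL and at 30.2, 29.6 and 31.0 TPM in ILN. Both groups were tight and did not overlap. The log2 fold change was −0.89 (SE 0.0365, adjusted p = 1.77e-28 in edgeR's test), which left 54.0%, so Sod2 passed the test but not the log2 cutoff of 1. Of the 50-base words of Sod2, 17.6% also occur in the model AC166110.4. Superoxide and peroxide enzymes as a list had 15 of 15 genes tested, with 11 lower, 3 higher and 1 not called, beside 39.8% lower and 40.2% higher among all tested genes. Past both cutoffs was 1 gene of the 15, beside 10.1% lower among all tested genes. That gene was Sod3, the secreted superoxide dismutase, which is bound to the extracellular matrix. Sod3 went from 28.6, 23.7 and 25.5 TPM to 1.91, 1.72 and 2.21 TPM, far apart in all libraries (log2 fold change −3.70, SE 0.112, adjusted p = 6.99e-33). The cytosolic Sod1 went from 1358 ± 36.0 to 978 ± 28.7 TPM (SD, n = 3; log2 fold change −0.46, SE 0.0305, adjusted p = 1.74e-19). All 3 superoxide dismutases therefore had lower RNA in ILN, to 7.71% of the IL level for Sod3, 54.0% for Sod2 and 72.6% for Sod1.

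Of the adhesion members, Vcam1 fell and Icam1 was barely expressed. Vcam1 (Entrez 22329; chr3:116109949-116129688, minus strand), the ligand of the integrin VLA-4, had 103, 101 and 89 reads in IL and 8, 7 and 17 in ILN. In TPM this was 3.07, 3.10 and 2.67 against 0.23, 0.20 and 0.47, a low level in both groups with no overlap. The log2 fold change was −3.25 (SE 0.216, adjusted p = 1.48e-19 in edgeR's test), which left 10.5%. Icam1 (Entrez 15894; chr9:21015985-21028817, plus strand), the ligand of LFA-1, had 3, 1 and 3 reads in IL and 1, 5 and 3 in ILN. The groups of Icam1 overlapped, and the pooled ratio of IL to ILN was 0.819 with an exact 95% interval of 0.259 to 2.47, so no difference was detectable at this depth. The exons of Icam1 overlap 511 bases of Gm47079 on the opposite strand.

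On the list of leukocyte adhesion molecules, which includes Vcam1 and Icam1, 17 of 18 genes had a row and 7 were tested. Of these, 5 were lower and 2 higher, beside 39.8% and 40.2% among all tested genes. Past both cutoffs, 10.1% of all tested genes were lower. The 3 that were lower past both cutoffs, Vcam1, Mcam and Icam5, were the same 3 that passed the filter on low counts through IL alone, and of the other 4 tested genes 2 were lower, 2 higher and none past both cutoffs (median −0.01 on the log2 scale). Icam5 is named after its values were seen. Mcam, which encodes the adhesion protein CD146, had 136, 139 and 135 reads in IL and 9, 9 and 23 in ILN (log2 fold change −3.38, SE 0.191, adjusted p = 1.27e-21 in edgeR's test, and −3.97 without ILN replicate 3). All ILN libraries were far below the IL libraries. Icam2, a relative of Icam1, had 0 reads in IL and 4 in ILN. Selp, the gene of P-selectin, was the most abundant gene named here from this list, and chosen after its values were seen, at 193 ± 2.59 TPM in IL and 156 ± 3.10 TPM in ILN (SD, n = 3; log2 fold change −0.27, SE 0.0282, adjusted p = 1.73e-12).

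Transcription factors that commonly drive such genes were also measured. Of 10 listed, all were tested, with 6 lower, 3 higher and 1 not called (39.8% lower and 40.2% higher among all tested genes), and a median log2 fold change of −0.23. Nfkbiz, which encodes the IκBζ cofactor that many acute-phase genes need, went from 35.7, 38.3 and 36.0 TPM to 11.96, 12.55 and 10.52 TPM (log2 fold change −1.6, SE 0.0491, adjusted p = 3.91e-34 in edgeR's test). Irf1, an interferon-regulatory factor, fell from 46.4 ± 1.71 to 17.1 ± 1.6 TPM (SD, n = 3; log2 fold change −1.41, SE 0.0563). Nfkb1, the gene of the p50 subunit of NF-κB, fell from 65.3, 67.2 and 62.0 TPM to 29.1, 29.8 and 31.1 TPM (log2 fold change −1.08, SE 0.0365). Other subunits of NF-κB rose, Relb by a log2 fold change of 1.11 (21.8 ± 0.364 to 46.3 ± 2.09 TPM, SD, n = 3), Nfkb2 by 0.51 and Rela by 0.43. Cebpd and Stat3 fell by 0.27 and 0.20 on the log2 scale. Cebpb, the gene of C/EBPβ, was at 90.9, 94.2 and 64.8 TPM in IL and at 105, 75.1 and 55.6 TPM in ILN, so its groups overlapped widely (log2 fold change −0.06, SE 0.298, adjusted p = 0.864). RNA levels of these factors do not measure the activity of their proteins.

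**Figure D4:**
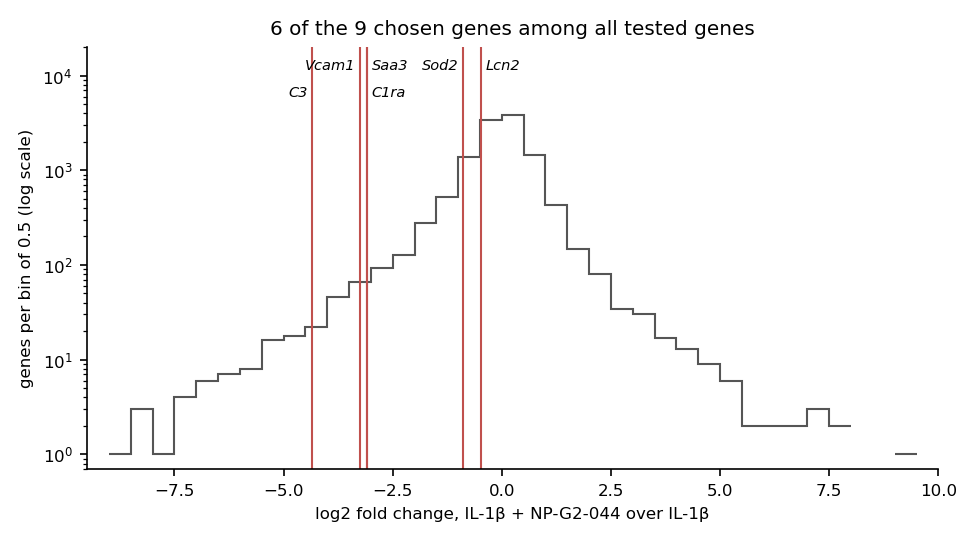
Number of tested genes in each bin of 0.5 log2 fold change (log axis) with red lines at the 6 tested genes of the set. Lcn2 and Sod2 lie within the bulk of the 11983 genes, and C3, C1ra, Saa3 and Vcam1 lie in the left tail.

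Placed among all 11983 tested genes ordered from the largest fall, C3 ranked 70, Vcam1 164, Saa3 187 and C1ra 188, as the plot of the distribution shows. Sod2 ranked 1413 and Lcn2 2753, so they sat among the many genes with moderate falls. In order of level under IL-1β alone, the tested genes were Saa3 (331 TPM), Lcn2 (219), C1ra (99.5), Sod2 (57.3), C3 (26.6) and Vcam1 (2.95), and no neighbours in this order overlapped between libraries. In ILN the order was Lcn2 (155 TPM), Saa3 (37.3), Sod2 (30.3), C1ra (11.5), C3 (1.44) and Vcam1 (0.30). Here the lowest Saa3 library (31.2 TPM) was barely above the highest Sod2 library (31.0 TPM).

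Markers of the labelled line and of other cell types were also measured. Of 11 chondrocyte markers 7 had a row, 4 of them were below 1 TPM, and their summed level was 21.9 to 22.7 TPM in IL and 17.1 to 17.6 in ILN. Col2a1, the defining collagen of cartilage, had 32 reads in IL and 6 in ILN, so it was close to absent. Sox9, a transcription factor of chondrocytes, rose from 6.44 ± 0.675 to 11.4 ± 0.0569 TPM (SD, n = 3; log2 fold change 0.85, adjusted p = 5.07e-16 in edgeR's test), and Sox5, its partner, fell from 10.3 ± 0.0839 to 2.27 ± 0.245 TPM (log2 fold change −2.49, adjusted p = 5.06e-33). The 8 fibroblast markers summed to 1139 to 1185 TPM in IL and 357 to 373 in ILN, and 1 of them was at 0 in all libraries. Most of this sum was Col1a2, a chain of type I collagen, at 1098 ± 27.0 TPM in IL and 331 ± 6.80 TPM in ILN (SD, n = 3), and Pdgfra on the same list rose from 2.36 ± 0.286 to 8.69 ± 0.298 TPM (SD, n = 3; log2 fold change 1.91, adjusted p = 2.49e-29). Of 8 macrophage and leukocyte markers 6 had a row, and their sum rose from 11.3 to 14.6 TPM in IL to 124 to 135 in ILN, almost wholly through Cd68, while the pan-leukocyte gene Ptprc had no read in any library. Endothelial markers (4 of 6 with a row) summed to at most 0.55 TPM in any library, and hepatocyte markers (3 of 6) to at most 0.78 TPM, with Alb at 0 reads in all. The part of the fibroblast and Cd68 differences in the falls of the complement and acute-phase genes was not tested.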

How the data were processed

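RNA from 6 ATDC5 samples was sequenced, 3 with IL-1β (IL) and 3 with IL-1β plus inhibitor (ILN), and groups were taken from the sample labels. The authors deposited a table of expected counts (estimated reads per gene, not normalized), with TPM and FPKM computed by the authors per library. The submitters' processing notes name cutadapt, HISAT2 2.0, StringTie and build mm10, and say nothing of strandedness or gene annotation. The deposited TPM was used for levels, and the deposited FPKM was not tested. The 9 genes and the gene lists were chosen with earlier results of these data known.

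Expected counts were rounded to whole numbers and tested with edgeR 4.0.16 (quasi-likelihood, robust, TMM scaling, minimum count 10 in the expression filter) in R 4.3.3 over 11983 genes, with Benjamini-Hochberg adjustment. Genes were called at an adjusted p under 0.05 and, where both cutoffs are named, with a log2 fold change beyond 1 in either direction. SE was the absolute log2 fold change divided by the square root of F. The script was tested on simulated data. Genes below the filter were compared by pooled reads with exact Clopper-Pearson 95% intervals. Named genes were all 9, their close partners, all listed transcription factors and up to 5 genes per list past both cutoffs. Those 5 needed a mean of at least 1 TPM over all libraries. Some genes that this rule names are not reported here or drawn in the figures, but they remain in the counts and medians of the lists. Other named genes are stated to have been chosen after their values were seen. Alternatives were DESeq2 1.42.0, limma 3.58.1, other filters and scalings, a replicate block, and each library left out. Same-numbered libraries did not deviate together (correlations −0.093, −0.024 and 0.026). Positions are from GENCODE for mm10, and 50-base words were compared between the exons of genes.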

Additional observations from a re-analysis of the deposited data

How the results depend on the processing

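The 6 tested genes stayed lower in ILN in every alternative that could test them, with log2 fold changes of −4.40 to −3.50 for C3, −3.11 to −3.01 for C1ra, −3.17 to −2.95 for Saa3, −0.52 to −0.42 for Lcn2, −0.92 to −0.87 for Sod2 and −3.75 to −1.61 for Vcam1, the least fall of Vcam1 being that on log2(TPM + 1). Tested against a fold change of 2 in edgeR, Lcn2 (−0.47) and Sod2 (−0.89) were not called. Their estimates lie within that fold, so this adds nothing to their place under the log2 cutoff. Under a filter of at least 10 CPM, Vcam1 could not be tested. Over the genes of the 8 lists, 43 were lower and 18 higher at the adjusted p threshold, against 27 and 11 under that filter and 24 and 4 against a fold change of 2, and 25 were lower and 5 higher past both cutoffs, against 10 and 3 under the filter and 3 higher on log2(TPM + 1). That filter leaves fewer genes to test. On log2(TPM + 1), Cd46 (0.97) and Hpx (0.52) lay under the log2 cutoff, and the cause was not tested. Masp2 changed sign on log2(TPM + 1) (−0.05) and log2(TPM + 0.1) (−0.06). Cebpb ranged from −0.32 to 0.13 with each library left out, with 0.01 without IL replicate 1, 0.03 without IL replicate 2 and 0.13 without ILN replicate 3. With the replicate block C3 was −4.34 and still called, and no call on the 9 genes or count over the lists changed. Among named list genes, the calls of Masp1 and Masp2 and the place of Hpx past the log2 cutoff were lost in several alternatives, given with their values above. Reads of 3 genes were too few to give more than an interval.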

Other observations

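Reads of several low genes were uneven between the ILN libraries, chosen here after their values were seen. Vcam1 had 8, 7 and 17 reads in ILN replicates 1, 2 and 3, Mcam had 9, 9 and 23, Orm3 had 2, 4 and 11 and Icam5 had 1, 2 and 5. In each of these genes ILN replicate 3 held the most reads and still lay below every IL library. Without ILN replicate 3 their log2 fold changes were −3.75, −3.97, −3.99 and −2.84. Not all low genes went this way. Susd4 had 11, 18 and 8 reads in ILN replicates 1, 2 and 3 and Clu had 14, 20 and 12, with the fewest in ILN replicate 3. Among the more abundant genes, ILN replicate 3 also held the most reads of Lcn2 (1005, 967 and 1089) and Sod2 (1205, 1206 and 1266), by small margins, but not of C3 (57, 69 and 65) or Saa3 (131, 96 and 124).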
